A study of Mus musculus with 27 samples.

Results

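The insulin-like growth factor (IGF) axis was followed through its ligands Igf1 and Igf2, the receptor Igf1r and the adaptor Irs1 in medulloblastoma grown as allografts. The members were 8 probe sets of 4 genes, chosen by identifier out of the 45101 rows of the expression table: 4 probe sets for Igf1, 1 for Igf2, 2 for Igf1r and 1 for Irs1. Igf1 and Igf2 are secreted ligands that bind Igf1r, a receptor tyrosine kinase. The active receptor phosphorylates Irs1, which recruits PI3K and so feeds the kinases AKT and mTOR. In the developing cerebellum, IGF signalling is known to act together with Hedgehog signalling on granule neuron precursors, the cells from which Hedgehog-driven medulloblastoma arises.

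Every tumour came from Ptch+/-p53-/- mice and was carried under the skin of nude mice, which keep their own stroma, vessels and macrophages. Each of 21 one-colour RNA arrays held 1 tumour of 1 mouse. Vehicle tumours were taken after 4 h (3 tumours), 16 h (3 tumours) and 48 h (2 tumours). Tumours still sensitive to NVP-LDE225, an antagonist of Smoothened, were collected at those times (again 3, 3 and 2 tumours) with 20 mg/kg/day given in 1 daily dose. Resistant tumours were collected on day 26 of dosing, 2 of them at 20 mg/kg/day and 3 at 160 mg/kg/day, given in 2 daily doses. DNA was measured on 6 other arrays, for 3 vehicle tumours of day 26 and 3 resistant tumours, which had received 40, 80 or 160 mg/kg/day. The last of these has labels that disagree: its title and source name say vehicle, and its status, treatment and dose fields, by which it was grouped, say resistant.

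Intensities are the deposited linear values, and a change is a difference of log2(intensity + 4) with its standard error (SE), tested with limma in one model over all 21 arrays. Adjusted p-values cover all 32842 probe sets tested, and a probe set was called at an adjusted p below 0.05. All 8 members passed the filter on dim probe sets. The mean intensity of an array lay between 221.4 and 256.4. The actin 3′ to 5′ ratio, a measure of RNA integrity, was 1.53 to 1.91 in the 12 early arrays (4 h and 16 h) and 1.25 to 1.40 in the other 9 (48 h and resistant tumours). Resistant and vehicle tumours thus differ in this ratio unless only vehicle tumours of 48 h are used. Resistant tumours also differ in it from LDE225 tumours of 16 h, and vehicle tumours of 48 h from those of 4 h. The part of this ratio in the results was not tested. The tables used here do not pair other probe sets with genes, so markers of the tumour and of host cell types were not evaluated on RNA. In bulk tumours, fewer cells of a type and less RNA per cell cannot be told apart.

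Igf2 encodes the fetal ligand, an imprinted gene read from several promoters. On average, Igf2 (1448152_at) was lowest in vehicle tumours and highest in resistant tumours. In vehicle tumours it ranked between the 65.6th and the 78.7th percentile of its array. Its intensities in vehicle tumours were 125.3, 166.5 and 197.7 at 4 h, 135.3, 167.3 and 165.2 at 16 h, and 82.2 and 133 at 48 h. In sensitive tumours under LDE225 they were 204.6, 137.8 and 204.2 at 4 h, 279.9, 191 and 264.9 at 16 h, and 463.7 and 514.6 at 48 h. The drug-treated and vehicle values overlapped at 4 h and were separate at 16 h and 48 h. Resistant tumours gave 1003.3 and 333 at the lower dose of 20 mg/kg/day and 3290.8, 5023.6 and 3124.6 at the higher dose of 160 mg/kg/day. Every resistant tumour lay above every vehicle tumour, and the 3 tumours at 160 mg/kg/day lay above the other 18 arrays.

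**Figure D1:**
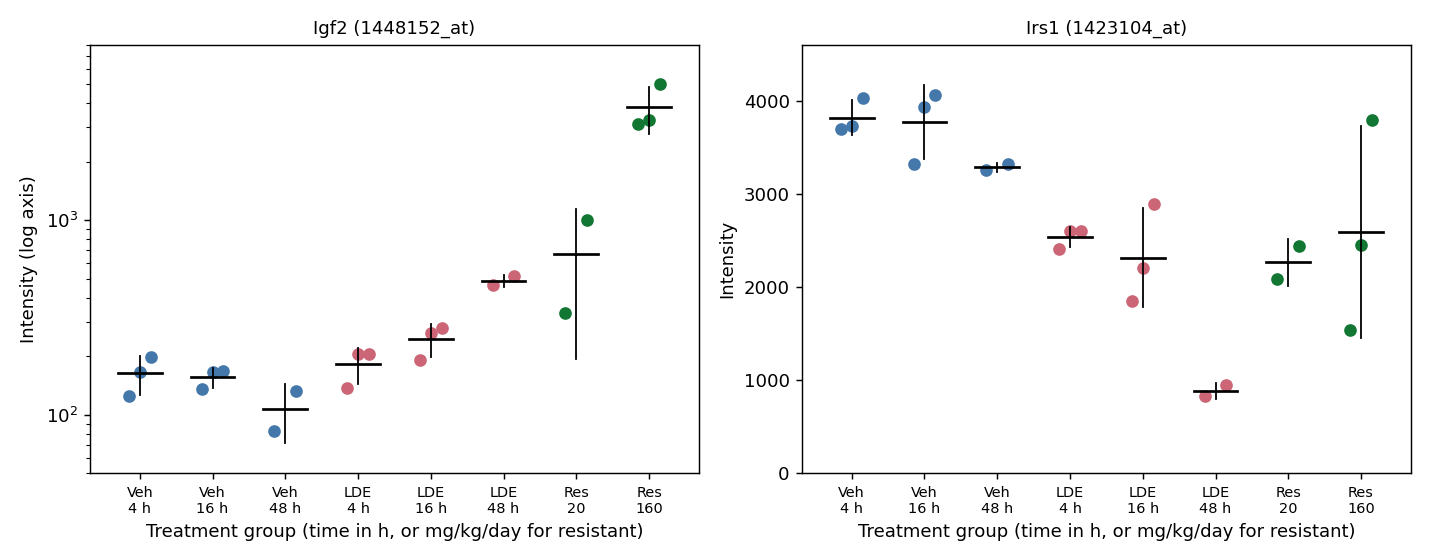
Intensity of Igf2 (left, log axis) and Irs1 (right, linear axis) in each tumour, by treatment group. Points are tumours, horizontal bars are group means and vertical bars are ± 1 SD (n = 2 or 3); Igf2 is highest in the 3 resistant tumours at 160 mg/kg/day (3124.6 to 5023.6), and Irs1 is lowest in the 2 LDE225 tumours of 48 h (827 and 947.3).

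In order of their means, Igf2 stood at 3813 ± 1052 (SD, n = 3) in resistant tumours at 160 mg/kg/day and 668 ± 474 (SD, n = 2) in those at 20 mg/kg/day. LDE225 tumours followed with 489 ± 36.0 (SD, n = 2) at 48 h, 245 ± 47.6 (SD, n = 3) at 16 h and 182 ± 38.5 (SD, n = 3) at 4 h. Vehicle tumours held the last places with 163 ± 36.3 (SD, n = 3) at 4 h, 156 ± 17.9 (SD, n = 3) at 16 h and 108 ± 35.9 (SD, n = 2) at 48 h. Resistant tumours at 20 mg/kg/day overlapped the LDE225 tumours of 48 h, and LDE225 tumours of 16 h and 4 h overlapped each other and the latter overlapped vehicle tumours of 4 h.

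In sensitive tumours, Igf2 changed by 0.16 (SE 0.31, limma adjusted p = 0.986) at 4 h and by 0.63 (SE 0.31, adjusted p = 0.193) at 16 h, and neither passed the threshold. At 48 h Igf2 rose by 2.18 (SE 0.37, limma adjusted p = 0.000377), a ratio of mean intensities of 4.55. The effect at 48 h exceeded that at 4 h by 2.02 (SE 0.48, limma adjusted p = 0.00958), with vehicle tumours entering both effects at their own times. Vehicle tumours themselves changed by -0.60 (SE 0.34, limma adjusted p = 0.519) from 4 h to 48 h, which did not pass.

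In resistant tumours Igf2 rose by 3.60 over vehicle tumours (SE 0.21, 95% interval 3.15 to 4.04, limma adjusted p = 2.31e-08). The mean intensity was 2555 ± 1891 (SD, n = 5) against 147 ± 35.2 (SD, n = 8), a ratio of 17.4, and only 5 of the 32842 probe sets had a larger log2 change in either direction. Against the 2 vehicle tumours of 48 h alone, whose actin ratios are like those of resistant tumours, the change was 4.03 (SE 0.31, limma adjusted p = 8.74e-07). Each dose passed by itself, with a change of 1.99 (SE 0.30, limma adjusted p = 0.000406) at 20 mg/kg/day and of 4.67 (SE 0.25, limma adjusted p = 4.71e-09) at 160 mg/kg/day. Compared with sensitive tumours on the drug (16 h and 48 h together), Igf2 was higher by 2.45 (SE 0.24, limma adjusted p = 7.75e-07). By dose, resistant tumours at 20 mg/kg/day differed by 0.84 (SE 0.31, limma adjusted p = 0.0916), those at 160 mg/kg/day by 3.52 (SE 0.27, limma adjusted p = 1.07e-07). The resistant and sensitive tumours also differed in daily doses and length of treatment. No vehicle tumour of day 26 was measured for RNA. In every RNA comparison with vehicle tumours, resistance and length of treatment therefore cannot be told apart.

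Between the resistant doses, Igf2 was higher at 160 than at 20 mg/kg/day by 2.68 (SE 0.34, limma adjusted p = 0.00245), and the ranges did not overlap. This call rested on few tumours. Without the 20 mg/kg/day tumour of 333 the change was 1.89 (limma adjusted p = 0.104), and in a model of these 5 arrays alone it was again 2.68 (SE 0.45), with a limma adjusted p of 0.791.

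Irs1, the adaptor between the receptor and PI3K, was read by a bright probe set (1423104_at), with a median rank at the 98.5th percentile of its array. Irs1 intensities in vehicle tumours were 3691.3, 3723.7 and 4031.7 at 4 h, 3317.8, 3934.9 and 4059.8 at 16 h, and 3251.2 and 3317 at 48 h. Under LDE225 they were 2596.3, 2406.5 and 2595.8 at 4 h, 2887.7, 2205.7 and 1846.3 at 16 h, and 827 and 947.3 at 48 h. Every drug-treated sensitive tumour lay below every vehicle tumour, and the 2 tumours of 48 h were the lowest of all 21. In resistant tumours Irs1 stood at 2444 and 2082.6 with the lower dose and at 3788.8, 1534.5 and 2449.1 with the higher. The resistant tumour of 3788.8 lay inside the vehicle range and the other 4 lay below it.

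Irs1 had group means of 3816 ± 188 (SD, n = 3), 3771 ± 397 (SD, n = 3) and 3284 ± 46.5 (SD, n = 2) in vehicle tumours of 4 h, 16 h and 48 h. The 4 middle groups were resistant at 160 mg/kg/day with 2591 ± 1134 (SD, n = 3), LDE225 at 4 h with 2533 ± 109 (SD, n = 3), LDE225 at 16 h with 2313 ± 529 (SD, n = 3) and resistant at 20 mg/kg/day with 2263 ± 256 (SD, n = 2). Neighbours in that order overlapped among these 4, and the resistant tumours at 160 mg/kg/day also overlapped vehicle tumours of 48 h. LDE225 at 48 h was last and apart, with 887 ± 85.1 (SD, n = 2).

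Irs1 changed by -0.59 at 4 h (SE 0.22, limma adjusted p = 0.658, unadjusted p = 0.014). In a model of the 6 arrays of 4 h alone the adjusted p was 0.0407. Irs1 fell by 0.72 at 16 h (SE 0.22, limma adjusted p = 0.0313) and by 1.89 at 48 h (SE 0.27, limma adjusted p = 6.43e-05), the latter a ratio of means of 0.270. The effect at 48 h minus that at 4 h was -1.30 (SE 0.34, limma adjusted p = 0.0183). The call at 16 h was lost without vehicle tumour 2 or 3 or LDE225 tumour 2 or 3, with adjusted p of 0.0823, 0.0972, 0.0858 and 0.156. The call on the difference was lost without vehicle tumour 3 or LDE225 tumour 1 of 48 h, with adjusted p of 0.0805 and 0.0753.

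Against all vehicle tumours, Irs1 fell in resistant tumours by 0.63 (SE 0.15, limma adjusted p = 0.0102). Their mean was 2460 ± 831 (SD, n = 5) against 3666 ± 334 (SD, n = 8). Against vehicle tumours of 48 h only, the change was -0.48 (SE 0.22, limma adjusted p = 0.38), and with the doses taken singly it was -0.69 (adjusted p = 0.0511) at 20 mg/kg/day and -0.59 (adjusted p = 0.051) at 160 mg/kg/day.

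Irs1 was higher in resistant than in sensitive tumours under the drug by 0.59 (SE 0.17, limma adjusted p = 0.0139). Against single times, resistant tumours exceeded LDE225 tumours of 48 h by 1.41 (SE 0.22, limma adjusted p = 0.00011) and differed from those of 16 h by 0.05 (SE 0.20, limma adjusted p = 0.896). Without LDE225 tumour 1 of 48 h the change against both times was 0.37 (limma adjusted p = 0.175), and without tumour 2 it was 0.41 (limma adjusted p = 0.125). Between the resistant doses Irs1 differed by 0.10 (95% interval -0.41 to 0.61, limma adjusted p = 0.898).

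Igf1, the ligand that mediates much of growth hormone action and is also made locally in many tissues, was read by 4 probe sets. Their log2 values moved together over the 21 arrays, with Pearson r between 0.917 and 0.976 (these sets share a gene and the arrays). Igf1 1437401_at gave 88.1, 29.2 and 29.3 in vehicle tumours of 4 h, 206.3, 30.2 and 41.9 at 16 h, and 296.6 and 12.8 at 48 h. Under LDE225 it gave 34.2, 64.7 and 54.7 at 4 h, 49.6, 232.2 and 52.2 at 16 h, and 328.3 and 454 at 48 h. Resistant tumours gave 51.1 and 59.1 with the lower dose and 84.8, 252.8 and 12.6 with the higher. The spread between tumours of 1 group was wide, 23.2-fold in vehicle tumours of 48 h and 20.1-fold in resistant tumours at 160 mg/kg/day.

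**Figure D2:**
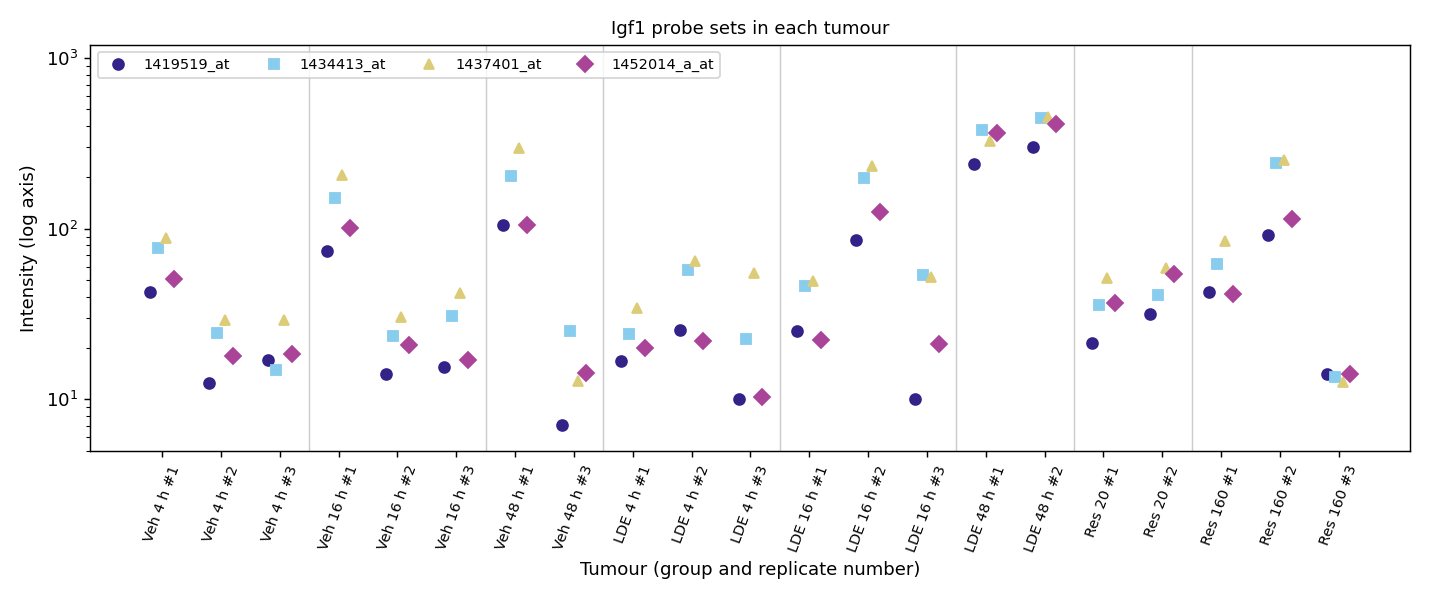
Intensity (log axis) of the 4 Igf1 probe sets in each of the 21 tumours, in order of group and replicate number; grey lines divide the groups. The probe sets rise and fall together from tumour to tumour, and the 2 LDE225 tumours of 48 h hold the highest values of each probe set (240.9 to 454).

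The spread of Igf1 within groups, as the residual SD of the log2 values, was 1.14 for 1419519_at, 1.26 for 1434413_at, 1.40 for 1437401_at and 1.10 for 1452014_a_at. The median over all probe sets was 0.33, and between 99.1% and 99.7% of probe sets had a smaller value than these 4. All 4 Igf1 probe sets picked the same tumour as the highest of each group: mouse 1 in all 3 vehicle groups and mouse 2 in all 5 drug-treated groups. The mouse numbers were not taken as pairs.

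At 4 h the changes of the Igf1 probe sets ranged from -0.53 to 0.20 and at 16 h from 0.14 to 0.66, and none was called. At 48 h both LDE225 tumours lay above the other 19 arrays in all 4 probe sets. The intensities of Igf1 1452014_a_at there were 362.8 and 411.4, against 104.8 and 14.2 in vehicle tumours of 48 h and a highest value of 126.1 among the other 19. Igf1 1452014_a_at rose by 3.13 at 48 h (SE 0.93, limma adjusted p = 0.0201) and 1419519_at by 2.98 (SE 0.96, limma adjusted p = 0.0318). Igf1 1434413_at changed by 2.42 (SE 1.06, adjusted p = 0.11) and 1437401_at by 2.46 (SE 1.17, adjusted p = 0.143), and these did not pass. The values of 1419519_at were 240.9 and 300.7 under the drug against 104.6 and 7.1 with vehicle, and those of 1434413_at 380.4 and 448.7 against 203.7 and 25.2.

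The Igf1 rise at 48 h rested on 4 tumours, of which vehicle tumour 3 was low. Without it the changes of 1419519_at and 1452014_a_at were 1.33 and 1.84 (limma adjusted p = 0.492 and 0.324). Without vehicle tumour 1 all 4 Igf1 probe sets passed, with changes of 4.62 for 1419519_at, 3.84 for 1434413_at, 4.54 for 1437401_at and 4.42 for 1452014_a_at. Leaving out either LDE225 tumour kept the changes at 2.82 to 3.22 for 1419519_at and 1452014_a_at, with adjusted p between 0.0758 and 0.142. The difference between the effects at 48 h and 4 h was 3.28 (SE 1.25, adjusted p = 0.0923) for 1419519_at and 3.67 (SE 1.20, adjusted p = 0.0509) for 1452014_a_at.

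In resistant tumours the Igf1 means were 40.2 ± 30.7 for 1419519_at, 79.2 ± 93.6 for 1434413_at, 92.1 ± 93.5 for 1437401_at and 52.2 ± 37.8 for 1452014_a_at (SD, n = 5), and vehicle means were 36.0 ± 35.6, 68.9 ± 71.2, 91.8 ± 104 and 43.2 ± 38.7 (SD, n = 8). The Igf1 changes of resistant against vehicle tumours lay between 0.14 and 0.38, with limma adjusted p from 0.702 to 0.913. The 95% intervals were wide, from -0.73 to 1.49 for 1452014_a_at and from -1.25 to 1.55 for 1437401_at. Against sensitive tumours of 16 h and 48 h the changes were -1.05 to -1.53, and none passed (adjusted p from 0.103 to 0.225). Without the 160 mg/kg/day tumour 2, Igf1 1434413_at passed with -2.07 (limma adjusted p = 0.0204). Against LDE225 tumours of 48 h alone, 3 of the 4 Igf1 probe sets passed as lower in resistant tumours, with changes of -2.87 for 1419519_at, -2.92 for 1434413_at and -3.05 for 1452014_a_at (limma adjusted p = 0.0107, 0.0173 and 0.00557). The fourth, 1437401_at, changed by -2.55 (limma adjusted p = 0.0561), with all 5 resistant values (12.6 to 252.8) below the 2 LDE225 values of 48 h.

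Igf1r, the receptor for both ligands, was read by 2 probe sets. Igf1r 1428967_at gave 102.3, 127.2 and 134.7 in vehicle tumours of 4 h, 91.5, 97.5 and 138.3 at 16 h, and 107.9 and 62.9 at 48 h. Under LDE225 it gave 65, 104.9 and 96.2 at 4 h, 98.3, 88.9 and 94.8 at 16 h, and 36.3 and 52.1 at 48 h. Resistant tumours gave 138.3 and 165.1 with the lower dose and 241.2, 64.8 and 55.8 with the higher. The 2 LDE225 tumours of 48 h were the lowest of all 21, and the 3 resistant tumours at 160 mg/kg/day held both the highest value and values below most vehicle tumours.

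**Figure D3:**
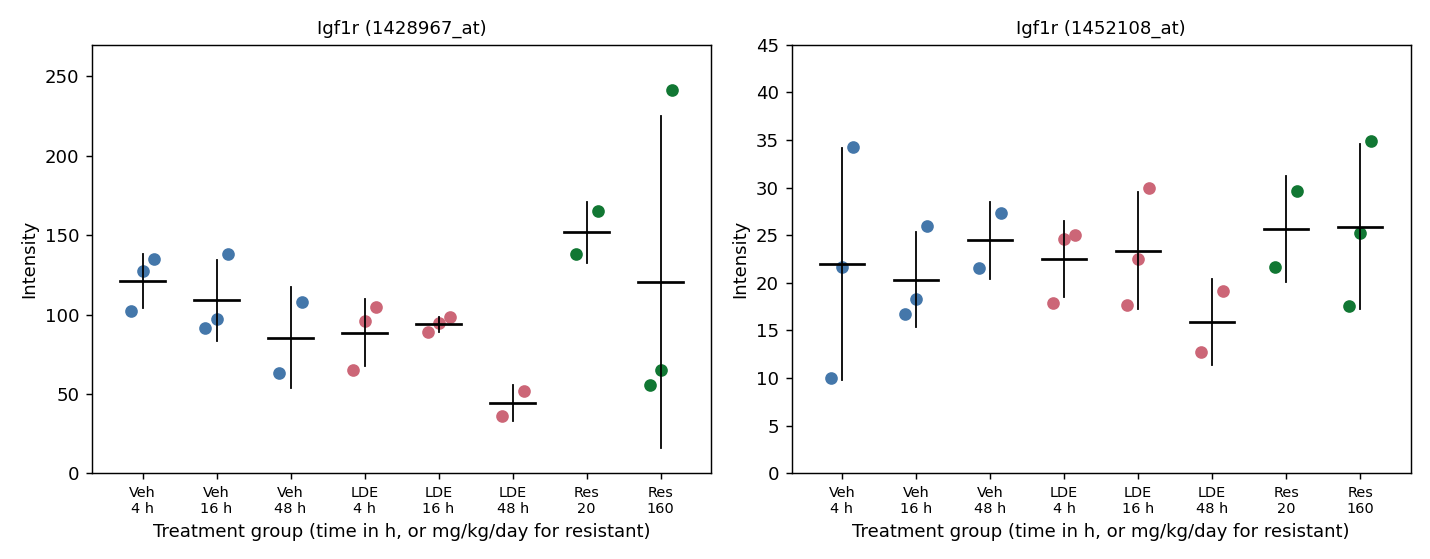
Intensity of the Igf1r probe sets 1428967_at (left) and 1452108_at (right) in each tumour, by treatment group, on linear axes of different range. Points are tumours, horizontal bars are group means and vertical bars are ± 1 SD (n = 2 or 3); 1428967_at spans 36.3 to 241.2 and 1452108_at 10 to 34.9.

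Igf1r 1428967_at changed by -0.45 (SE 0.37, adjusted p = 0.939) at 4 h, -0.18 (SE 0.37, adjusted p = 0.805) at 16 h and -0.86 (SE 0.45, adjusted p = 0.185) at 48 h by limma. The value at 48 h passed after quantile normalization of the arrays, with -1.18 (adjusted p = 0.0494). Resistant tumours had a mean of 133 ± 76.4 (SD, n = 5) against 108 ± 25.2 (SD, n = 8) in vehicle tumours, a change of 0.13 (SE 0.26, limma adjusted p = 0.794). They differed from sensitive tumours of 16 h and 48 h by 0.70 (SE 0.29, limma adjusted p = 0.0788) and from those of 48 h alone by 1.33 (SE 0.38, limma adjusted p = 0.0118). The comparison with both times passed in 4 other alternatives of the 22 run. It was 0.82 with quantile normalization and 0.79 with array weights (limma adjusted p = 0.0288 and 0.033), and 0.90 without the 160 mg/kg/day tumour 2 and 0.95 without tumour 3 (limma adjusted p = 0.0285 and 0.017). Without the resistant tumour of 241.2, the resistant doses differed by -1.27 (limma adjusted p = 0.0157), against -0.63 (SE 0.41, limma adjusted p = 0.541) with it.

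The second Igf1r probe set, 1452108_at, was dim, at 10 to 34.9, a median rank at the 48.5th percentile of its array. It was called in none of the 8 RNA comparisons and its log2 changes lay between -0.66 and 0.30. Over the 21 arrays its log2 values correlated with those of 1428967_at with r = 0.520, which describes these arrays.

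Of the 8 members, 0 were called at 4 h (limma, 1 at an unadjusted p below 0.05), where 0.104% of all probe sets were. At 16 h 1 was called, Irs1, where 14.4% of all probe sets were. At 48 h 4 were called, Igf2 and 2 probe sets of Igf1 upward and Irs1 downward, where 22.7% of all probe sets were. For the difference between the effects at 48 h and 4 h, 2 members were called against 12.8% of all probe sets. Resistant against vehicle tumours gave 2 called members, Igf2 and Irs1, again with 12.8% of all probe sets called. Resistant against sensitive tumours gave the same 2 genes, both upward, where 26% of all probe sets passed. The resistant doses gave 1, Igf2, where 0.773% passed, and vehicle tumours of 48 h against 4 h gave 0, where 0.746% passed (limma, 0 at an unadjusted p below 0.05). Since 4 of the 8 probe sets read 1 gene, these shares are not over independent members.

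**Figure D4:**
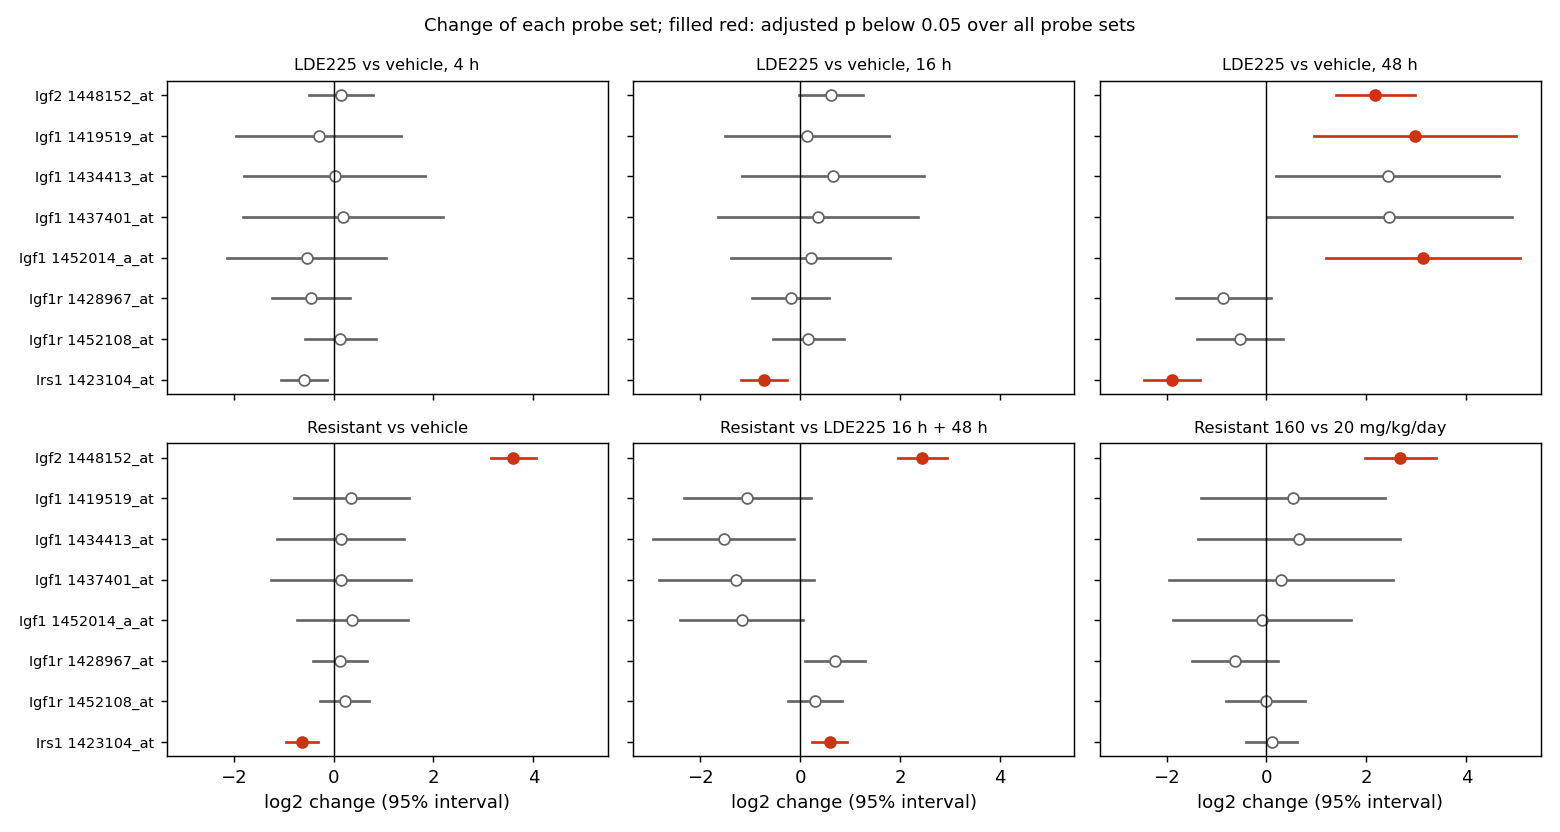
Change on the log2(intensity + 4) scale of each of the 8 probe sets in 6 comparisons, with its 95% interval; filled red points have a limma adjusted p below 0.05 over all 32842 probe sets. Igf2 is called in 4 of the 6 panels and Irs1 in 4, with opposite signs in sensitive tumours at 48 h (2.18 and -1.89).

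The median change of the 8 members was -0.14 at 4 h, 0.19 at 16 h and 2.30 at 48 h, beside 0.02, 0.09 and 0.09 over all probe sets tested. In resistant against vehicle tumours it was 0.19, beside 0.07. As 4 of the 8 probe sets read Igf1, this median does not describe the 4 genes alike. At 48 h it lay between Igf2 (2.18) and Igf1 1434413_at (2.42), while Igf1r (-0.86 and -0.53) and Irs1 (-1.89) had negative changes. The comparisons of resistant tumours with vehicle and with sensitive tumours share the resistant arrays, and the effects at single times share no arrays.

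The probe sets most like each gene over the 21 arrays, by Pearson r of log2 values among all probe sets tested, can be given by identifier only. Igf2 was most like 1456242_at (r = 0.908), which averaged 5.54 in vehicle and 200.2 in resistant tumours. Irs1 was most like 1452393_at (r = 0.940), which averaged 298 in vehicle tumours and 44.1 in LDE225 tumours of 48 h. Igf1, taken by 1437401_at, its probe set with the highest mean log2 value, was most like 1452217_at (r = 0.941), and Igf1r 1428967_at most like 1452982_at (r = 0.898). These correlations rest on shared arrays and groups.

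Promoter sequences of the 2 genes called in resistant tumours are shown because the drug acts on Hedgehog signalling, which ends in Gli transcription factors. They are the 250 bases before an annotated start, from RefSeq on build GRCm38.p6, 5′ to 3′ on the strand of the gene, with GC boxes (GGGCGG on either strand) and E boxes (CACGTG) in capitals. For Igf2, which has 4 start sites in that table, site 3 is printed (chr7:142658805-142659054, minus strand), and for Irs1 its only site (chr1:82291440-82291689, minus strand).
Igf2: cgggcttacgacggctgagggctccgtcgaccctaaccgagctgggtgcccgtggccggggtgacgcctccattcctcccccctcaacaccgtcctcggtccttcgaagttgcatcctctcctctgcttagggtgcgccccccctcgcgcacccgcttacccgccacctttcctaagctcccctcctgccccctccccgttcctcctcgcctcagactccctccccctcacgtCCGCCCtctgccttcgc
Irs1: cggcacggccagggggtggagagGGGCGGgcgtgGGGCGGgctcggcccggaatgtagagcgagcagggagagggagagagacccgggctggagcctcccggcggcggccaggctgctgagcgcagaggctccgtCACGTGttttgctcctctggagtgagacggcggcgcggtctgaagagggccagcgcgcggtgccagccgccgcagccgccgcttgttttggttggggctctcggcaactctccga

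The Gli motif GACCACCCA, searched on both strands, was in none of the 7 member windows of 250 bases, of Igf2 (4 sites), Igf1, Igf1r and Irs1 (1 site each), either exactly or with 1 mismatch. Of all 32841 windows of that length, 0.225% held it exactly and 5.79% with at most 1 mismatch. The printed Igf2 window held 1 GC box and the Irs1 window 2, with the E box 1 time in Irs1. Of the Igf2 windows not printed, those of sites 1 and 2 held 0 GC boxes and that of site 4 held 2. Which Igf2 start site these tumours used was not tested. GC boxes were in 32.7% and E boxes in 6.02% of all windows, and these matches describe letters, not bound sites.

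The DNA arrays gave a second readout of the same genes. By day or dose, the DNA tumours were not among those measured for RNA, except possibly the resistant tumour of 160 mg/kg/day. The labels do not say whether that tumour was also measured for RNA. No copy number change was called at any of the 4 loci (limma on 1 Mb windows, 0 of 4 called, 1 at an unadjusted p below 0.05), where 3.96% of 2548 windows were called. Values are log2 ratios of tumour over liver DNA, centred on each array's autosomal median, with positions of build mm8. The window of Igf2 (chr7:142000001-143000000, 150 probes) stood at 0.041, 0.029 and 0.045 in vehicle tumours and at -0.043, -0.010 and -0.037 in the resistant tumours of 40, 80 and 160 mg/kg/day. Resistant tumours were lower by a difference of -0.068 (SE 0.015, 95% interval -0.106 to -0.030, limma adjusted p = 0.0711), and the ranges did not overlap. Without the 80 mg/kg/day array the difference was -0.078 and passed (limma adjusted p = 0.0356). From signals corrected with normexp it was -0.026 (SE 0.027, limma adjusted p = 0.564), and without 1 vehicle array at a time the adjusted p was 0.197 to 0.306. The Igf2 RNA level was thus higher in the resistant tumours measured for RNA, and its DNA ratio was not higher in those measured for DNA.

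**Figure D5:**
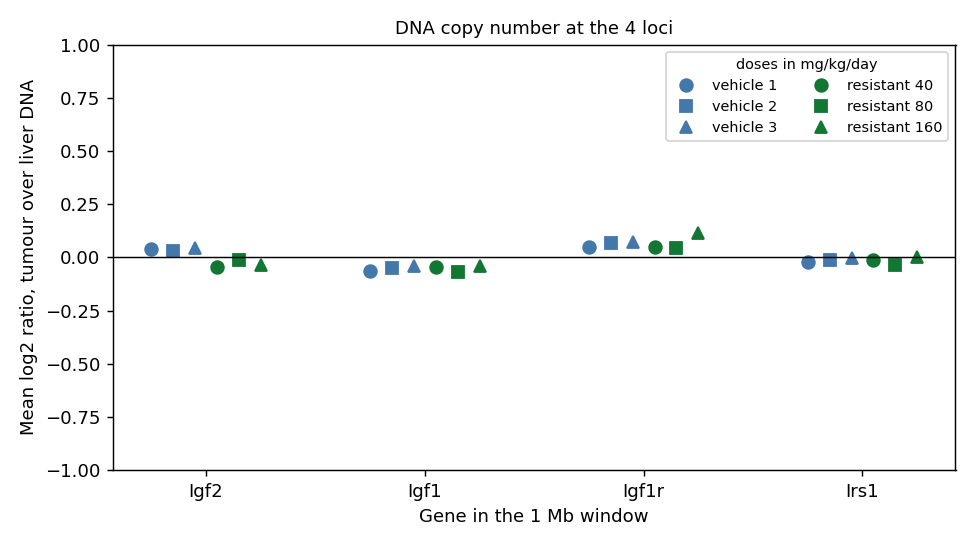
Mean log2 ratio of tumour over liver DNA in the 1 Mb windows at Igf2, Igf1, Igf1r and Irs1, for each of the 3 vehicle and 3 resistant tumours. All values lie close to 0, between -0.068 and 0.115.

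The Igf1 window (chr10:87000001-88000000) differed between resistant and vehicle tumours by 0.0019 (SE 0.015, limma adjusted p = 0.935). The Igf1r window (chr7:67000001-68000000), which ends inside the gene, differed by 0.0073 (SE 0.024, adjusted p = 0.832) and the Irs1 window (chr1:82000001-83000000) by -0.0025 (SE 0.016, adjusted p = 0.913), by the same limma fit. The 95% intervals of these 3 differences lay within -0.053 and 0.067, which bounds a shift shared by the 3 resistant tumours. The probes named for each gene were 3 for Igf2, 11 for Igf1, 37 for Igf1r and 8 for Irs1. Resistant arrays were noisier, with an SD between neighbouring probes of 0.281 to 0.461 against 0.132 to 0.198 in vehicle arrays. The Igf2 probes themselves averaged 0.168, 0.018 and 0.079 in vehicle tumours, and in resistant tumours they averaged -0.278, -0.165 and -0.386, with an SD over the 3 probes of up to 0.479.

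The wider pathway could be read on DNA, where the files name genes. Of all 2548 windows, 0.275% were called higher and 3.69% lower in resistant tumours (7 and 94 windows). Of 24 further genes of the IGF axis (binding proteins, proteases and other receptors and adaptors), 22 had a window, of which 0 were called higher and 2 lower in resistant tumours. These were Igfbp6, a binding protein that prefers Igf2, with a difference of -0.157 (SE 0.025, limma adjusted p = 0.0451), and Igf2bp1, an RNA-binding protein of the Igf2 mRNA, with -0.091 (SE 0.016, limma adjusted p = 0.047). Of 31 PI3K, AKT and mTOR pathway genes, 30 had a window, of which 0 were called higher and 4 lower. Sgk1, a kinase related to AKT, had the largest difference, -0.754 (SE 0.044, limma adjusted p = 0.00161). The others were Ddit4, an inhibitor of mTOR complex activity, with -0.135, the kinase Mtor with -0.121 and the kinase Akt2 with -0.119 (limma adjusted p = 0.0445, 0.0445 and 0.0382). The median difference was -0.0089 over the IGF list and -0.035 over the PI3K list, beside 0.0093 over all windows. A window holds other genes too, and some list members share a window, such as Igfbp1 and Igfbp3. Other signals, window sizes and sample sets were tried for the 4 member loci only, so how far the calls on these lists depend on them was not tested.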

How the data were processed

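RNA values are linear intensities deposited by the authors; the submitters' processing notes name MAS5, while its version and scaling target are not given in the sources used here. DNA files are scanner intensities, and per the file headers they come from Agilent Feature Extraction 9.5.3.1 and use build mm8; the processed signals were already background-subtracted and dye-normalized, with tumour in Cy5 and liver in Cy3 per the labels. The authors' deposited value table holds log10 ratios of the same arrays (r of 0.9996 or more with the scanner log ratios, column medians -0.0109 to -0.00158) and served as an alternative.

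For RNA, 4 was added before log2, which understates changes of dim probe sets. Probe sets were kept where 2 or more arrays had them at or above their own 40th percentile, and 64 controls were dropped, leaving 32842 of 45101. limma 3.58.1 in R 4.3.3 fitted 8 groups (13 residual degrees of freedom) with a mean-variance trend and two-sided Benjamini-Hochberg adjusted p-values. No 2 arrays were identical. For DNA, windows of 1 Mb with at least 5 of 232419 probes were fitted with limma; 99.83% to 99.87% of probes per array stood well above background. All 6 arrays shared 1 scan day and scanner. The number of arrays limits precision. Both fits were tested on simulated data. Of true log2 changes of 1, the RNA fit recovered 18.5% for LDE225 at 48 h and 6% for the difference of effects. It recovered 63.5% for resistant against vehicle tumours and 27.5% for the resistant doses. Of true changes of 2 it recovered 70%, 49%, 91.5% and 75% in that order. The DNA fit recovered 100% of windows shifted by 0.5, and 8.26% of its calls were false.

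All 8 members are named; pathway genes are named where called, up to 4 per list. The members and lists were chosen with earlier results of these data known. Cell type markers and pathway lists were not evaluated on RNA, because the tables used here do not pair those probe sets with genes. Other offsets, scalings, filters, weights, sample sets, windows, signals, a fit without the trend and a replicate block were tried. Python 3.11.15 and matplotlib 3.10.9 were used.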

Additional observations from a re-analysis of the deposited data

Results flagged for a closer look

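The effect of LDE225 on Igf2 (1448152_at) differed between times: the change at 48 h exceeded that at 4 h by 2.02 on the log2 scale (limma adjusted p = 0.00958). The effect on Irs1 (1423104_at) differed in the other direction, by -1.30 (limma adjusted p = 0.0183). Within vehicle, sensitive and resistant tumours, 24 sets of values (8 probe sets in 3 kinds of tumour) were searched for a single outlying tumour. Dixon's test on log2 values found 0, where chance alone would give about 1 in 20. Each set pooled the times or doses, so 2 tumours lying out together, such as the LDE225 tumours of 48 h, could hide each other.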

How the results depend on the processing

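Of 1100 alternative values for single members, 0 reversed a called change, 1048 stayed on the same side of the threshold, 27 lost the call and 25 gained one. Called members, of 8, numbered 0 for 16 h with quantile normalization or without the trend (1 in the report). For the difference between 48 h and 4 h they numbered 4 with an offset of 32 or array weights (2 in the report). With only the groups compared in the model, they numbered 1 at 4 h (0 in the report), 2 at 16 h, 1 for resistant against sensitive and 0 for the resistant doses. Resistant against vehicle tumours gave 1 (Igf2) with vehicle tumours of 48 h only or with either dose alone (2 in the report). Resistant against sensitive tumours gave 0 with the 20 mg/kg/day tumours only, 1 with LDE225 of 16 h only and 6 with LDE225 of 48 h only.

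Leaving out 1 tumour at a time gave 0 to 1 at 16 h, 2 to 6 at 48 h, 1 to 4 for the difference and 1 to 4 for resistant against sensitive, where 4 came without the 160 mg/kg/day tumour 2. It gave 0 to 2 for the resistant doses, 0 at 4 h, 0 for vehicle tumours over time and 2 throughout for resistant against vehicle. DNA windows gave 0 to 1, with 1 only without the 80 mg/kg/day array. Settings that drop samples test fewer of them by construction; for offset, scaling, trend and weights the cause was not tested. The lone tumour left in a group by such a fit is assumed to vary like the other groups.

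Same-numbered vehicle and LDE225 mice of one time did not all deviate together over all probe sets: over 7 pairs the correlations of their deviations lay between -0.201 and 0.180. Pairs across times or with resistant tumours were not checked. With the mouse number as a replicate block, called members numbered 0 at 4 h, 1 at 16 h, 4 at 48 h, 2 for the difference, 2 for resistant against vehicle, 3 for resistant against sensitive (adding Igf1 1434413_at, -1.53, limma adjusted p = 0.0456), 1 for the doses and 0 for vehicle tumours over time. Igf2 kept its call in all 26 alternatives for resistant against vehicle and in all 12 at 48 h, and Irs1 in all 12 at 48 h. The few arrays per group and the dim signal of 1452108_at limit what could be detected.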
